A study of Sus scrofa with 12 samples.

Results

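The trypsin-like serine proteases of the PRSS, TMPRSS and kallikrein families, with matriptase (ST14), hepsin (HPN) and the HTRA proteases, were compared between testis and epididymis. A gene was taken where its name in the deposited count tables began with PRSS, TMPRSS or HTRA and a number or with KLK and a number or B, or was ST14 or HPN. This gave 54 of the 30640 genes in the tables. Of these, 30 had enough reads to be tested and 24 did not, and 1 of the 24, HTRA2, had no read in any library. The rule used names only and no measured value.

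Both tissues came from adult, untreated Banna mini-pig boars of the inbred line BMI, a small pig of China. There were 5 short-read RNA-seq libraries of testis and 5 of epididymis, and per the file headers the same 5 boars gave both, 1 library of each tissue per boar. The labels put the age at 12 months, but in the headers it is 12, 12, 11, 17 and 11 months in order of replicate, and age was not used. The labels do not say from which segment of the epididymis each library was taken, and the 2 long-read pools of the series were not analysed here.

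Trypsin-like serine proteases cut proteins after arginine or lysine by a catalytic triad of histidine, aspartate and serine, and most are made as inactive precursors that another protease must cut. Germ cells of the testis make a set of their own, several of which sit on the sperm surface or in the acrosome and are needed in mouse for sperm to reach or enter the egg. Epithelia make another set, many of them anchored in the cell membrane and held in check by Kunitz-type inhibitors, which activates sodium channels, growth factors and other proteases. Kallikreins are secreted trypsin- or chymotrypsin-like enzymes of glands and skin, and HTRA proteases are secreted or mitochondrial enzymes with a PDZ domain.

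Levels are reads per 1000000 reads of the library (CPM), and levels of different genes were compared only as CPM per kilobase of the gene length in the tables (RPKM). Fold changes are testis over epididymis on the log2 scale with an approximate standard error (SE). The tested genes were called at an adjusted p of 0.05 in edgeR's quasi-likelihood test, fitted on all genes. The libraries held 18715154 to 30211957 reads in testis and 17980578 to 21937263 in epididymis. A gene without reads could still have up to 3, which is 0.0993 to 0.167 CPM by library, and such limits cover counting error only. In bulk tissue, fewer cells of a type and less RNA per cell cannot be told apart.

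The libraries matched their tissue labels by marker genes. Summed CPM of the 14 haploid germ cell markers in the tables (such as PRM1 and TNP1) was 18750 to 24001 in testis, against 79.2 to 714 in epididymis. The 15 duct epithelium markers (such as EPCAM and CRISP1) summed to 84.8 to 185 CPM in testis, where CRISP1 had 0 reads, against 8180 to 23947 CPM in epididymis. In each tissue a single library stood apart. Testis replicate 4 held 70.8 CPM of small structural RNAs, while the other testis libraries held 15042 to 16185 CPM. The epididymis libraries held 71.7 to 132 CPM, so in this content testis replicate 4 was like the epididymis. Apart from that library, this difference in RNA content runs with tissue, and the part of each in a contrast cannot be told apart. Epididymis replicate 3 had the highest haploid germ cell sum of its tissue, 714 CPM, while the others had 79.2 to 166 CPM.

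Of all 17225 genes tested, 6308 (36.6%) were called higher in testis, while 6506 (37.8%) were called higher in epididymis. Of the 30 proteases tested, 13 were called for testis, 12 for epididymis and 5 in neither direction. Those shares, 43.3% and 40%, are near the background. The CPM of all 54 summed to 1056 ± 78.5 in testis and 1139 ± 286 in epididymis (mean ± SD of 5 libraries each). Sorted by known role, however, the groups differed. The germ cell group had 9 members, 8 of them tested and all 8 called higher in testis. The epithelial group had 14 members, 9 of them tested, with 6 called higher in epididymis and 1 higher in testis. A gene high in a single tissue passes the filter on low counts through that tissue, so these counts describe the groups and are no separate test.

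**Figure D1:**
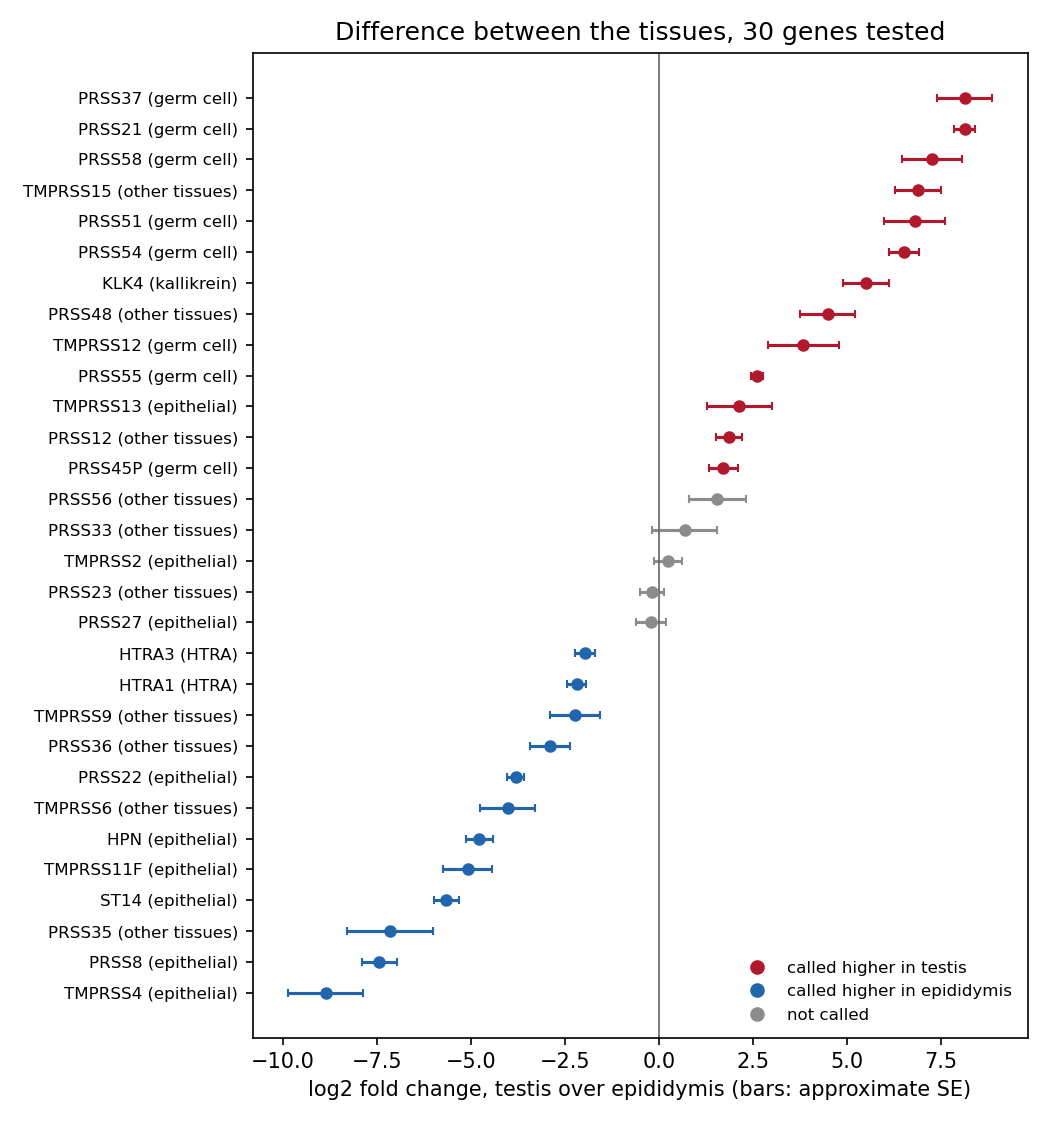
Log2 fold change (testis over epididymis, x axis) with its approximate SE for the 30 tested proteases. Rows run from the highest to the lowest fold change, with the role group in brackets, and are coloured by call. All 8 germ cell members lie to the right of 0, and 6 of the 9 epithelial members lie to the left and were called.

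The summed levels per library showed the role groups apart. The 9 germ cell members summed to 923, 729.8, 799, 774 and 777 CPM in testis replicates 1 to 5, against 30.9, 28.2, 29.8, 39.4 and 26.5 CPM in epididymis replicates 1 to 5. The 14 epithelial members summed to 142, 137, 144, 102 and 147 CPM in testis, against 1228, 866, 443, 775 and 1099.5 CPM in epididymis. In both groups the libraries of the tissues did not overlap. A single gene, PRSS37, held 41.2% ± 6.13 of all protease reads in testis, against 0.190% ± 0.293 in epididymis (SD, n = 5 each). In the epididymis no gene held as large a share. ST14 held 0.420% ± 0.113 in testis and 19.4% ± 3.56 in epididymis, TMPRSS4 0.0449% ± 0.0123 and 18.1% ± 9.95, and PRSS8 0.0945% ± 0.0488 and 16.2% ± 3.86.

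**Figure D2:**
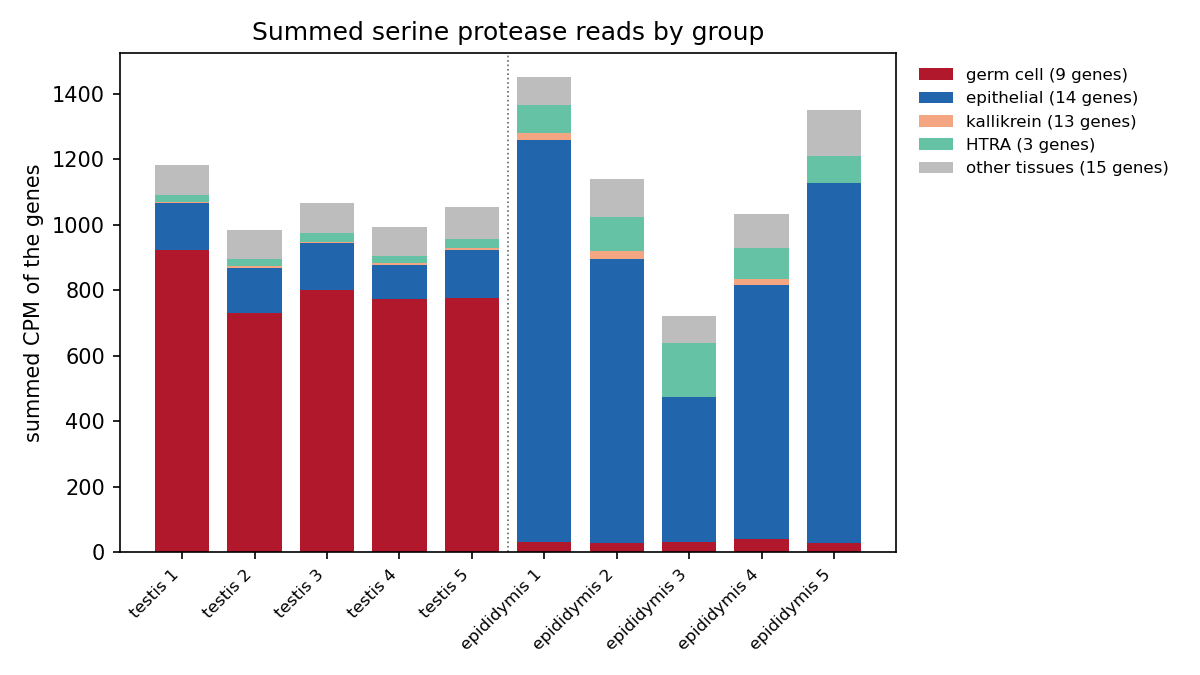
Summed CPM of the 54 proteases in each library (y axis), stacked by role group, with the 5 testis libraries on the left and the 5 epididymis libraries on the right. Germ cell members make up most of each testis bar and epithelial members most of each epididymis bar, with epididymis replicate 3 the lowest bar at 722 CPM.

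The germ cell group was led by PRSS37, a trypsin-like protein of the acrosome that in mouse is needed for sperm to enter the oviduct (chromosome 18, 8112288 to 8119176 of the pig build Sscrofa11.1, in the RefSeq annotation from which all positions here are taken). It had 572, 411, 451, 312 and 442 CPM in testis replicates 1 to 5, against 0.407, 0.712, 5.15, 0.945 and 0.734 CPM in epididymis replicates 1 to 5. The lowest testis library, replicate 4, was still far above the highest epididymis library, replicate 3. The tissues differed by a log2 fold change of 8.13 ± 0.73 (SE, edgeR adjusted p = 1.35e-06), and it was 9.28 without epididymis replicate 3. Per length it stood at 359 ± 76.4 RPKM in testis and 1.30 ± 1.64 RPKM in epididymis (mean ± SD of 5 libraries each), the highest of the 54 in testis. In RefSeq the gene lies within SSBP1, a mitochondrial DNA-binding protein gene, which had 13.4 ± 4.84 CPM in testis and 22.9 ± 4.36 CPM in epididymis.

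PRSS58, a trypsin-like gene of little known function on the same chromosome (chromosome 18, 7715969 to 7725465), had 83.6, 76.1, 90.5, 79.2 and 65.9 CPM in testis, against 0.153, 0.0548, 2.01, 0.222 and 0.0979 CPM in epididymis. Epididymis replicate 3 was again the highest of its tissue, and the tissues did not overlap. This gave a log2 fold change of 7.27 ± 0.80 (edgeR adjusted p = 6.41e-06), or 9.17 without replicate 3. PRSS51, for which the RefSeq table gives no position by symbol, showed 47.9, 38.4, 39.1, 55.7 and 47.7 CPM in testis, against 0.102, 0, 1.64, 0.111 and 0.147 CPM in epididymis. Here too epididymis replicate 3 was the highest of its tissue, while replicate 2 had no read. Its log2 fold change of 6.80 ± 0.82 (edgeR adjusted p = 1.38e-05) moved to 8.87 without replicate 3.

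PRSS54, a protease-like protein of the acrosome in mouse (chromosome 6, 20085494 to 20090486), had 67.7, 61.7, 71.6, 124 and 69.3 CPM in testis, against 0.458, 0.602, 1.69, 0.667 and 0.881 CPM in epididymis. Testis replicate 4 was the highest by a wide margin. Testis over epididymis, the log2 fold change was 6.52 ± 0.39 (edgeR adjusted p = 7.16e-08). In RefSeq it shares 3326 bases with CCDC113, a gene of cilia and flagella, which had 12.7 ± 4.89 CPM in testis and 3.68 ± 2.63 CPM in epididymis. The strand setting of the counting is not given, so reads of the overlap cannot be assigned.

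Testisin (PRSS21), a protease tied to the membrane of spermatocytes, spermatids and sperm by a lipid anchor, was nearly absent from the duct. It had 22.6, 21.4, 23.5, 29.6 and 23.4 CPM in testis, against 0.0509, 0.110, 0.0912, 0.111 and 0.0490 CPM in epididymis. All 5 epididymis libraries lay under the level that a count of 0 allows, replicate 3 included. The log2 fold change was 8.13 ± 0.29 (edgeR adjusted p = 9.61e-09). In epididymis replicate 3 it stood at 0.378% of its testis mean, while PRSS37 stood at 1.18%, PRSS58 at 2.54%, PRSS51 at 3.59% and the protamine PRM1 at 3.71% of theirs.

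PRSS55, a lipid-anchored sperm protease needed in mouse for passage into the oviduct (chromosome 14, 13767574 to 13777871), kept an even level in the duct. It had 82.03, 77.7, 81.96, 107 and 88.3 CPM in testis, against 15.8, 13.7, 13.7, 14.7 and 14.2 CPM in epididymis. The 5 epididymis libraries lay within a narrow band, while their haploid germ cell marker sums ran from 79.2 to 714 CPM. The tissues differed by a log2 fold change of 2.61 ± 0.15 (edgeR adjusted p = 6.76e-08). The gene length in the tables, 11369 bases, is longer than the whole gene in RefSeq, so its per-length level of 7.68 ± 1.01 RPKM in testis and 1.27 ± 0.0780 RPKM in epididymis rests on another gene model.

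PRSS45P, a row that carries the human pseudogene symbol of a testis protease cluster known from mouse, was also present in both tissues. It had 39.04, 37.8, 36.01, 54.3 and 33.8 CPM in testis, against 13.8, 12.9, 3.28, 22.6 and 10.2 CPM in epididymis. In the epididymis it was lowest in replicate 3, the library in which PRSS37, PRSS58 and PRSS51 were highest. Its log2 fold change was 1.70 ± 0.39 (edgeR adjusted p = 0.0017).

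TMPRSS12, a membrane-anchored protease needed for fertility of male mice (chromosome 5, 16698794 to 16727920), had 7.33, 4.998, 5.28, 12.4 and 6.28 CPM in testis, against 0.0509, 0.164, 2.19, 0 and 0.0979 CPM in epididymis. The tissues did not overlap, but epididymis replicate 3 reached 30.1% of the testis mean. The log2 fold change of 3.84 ± 0.94 (edgeR adjusted p = 0.00279) was 6.40 without that library. PRSS41, a testis protease in mouse, was the member of this group that was not tested. It had 51 reads over the 5 testis libraries and 0 over the 5 epididymis libraries, at least 14.6-fold higher in testis against a floor of 3 reads over the epididymis.

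**Figure D3:**
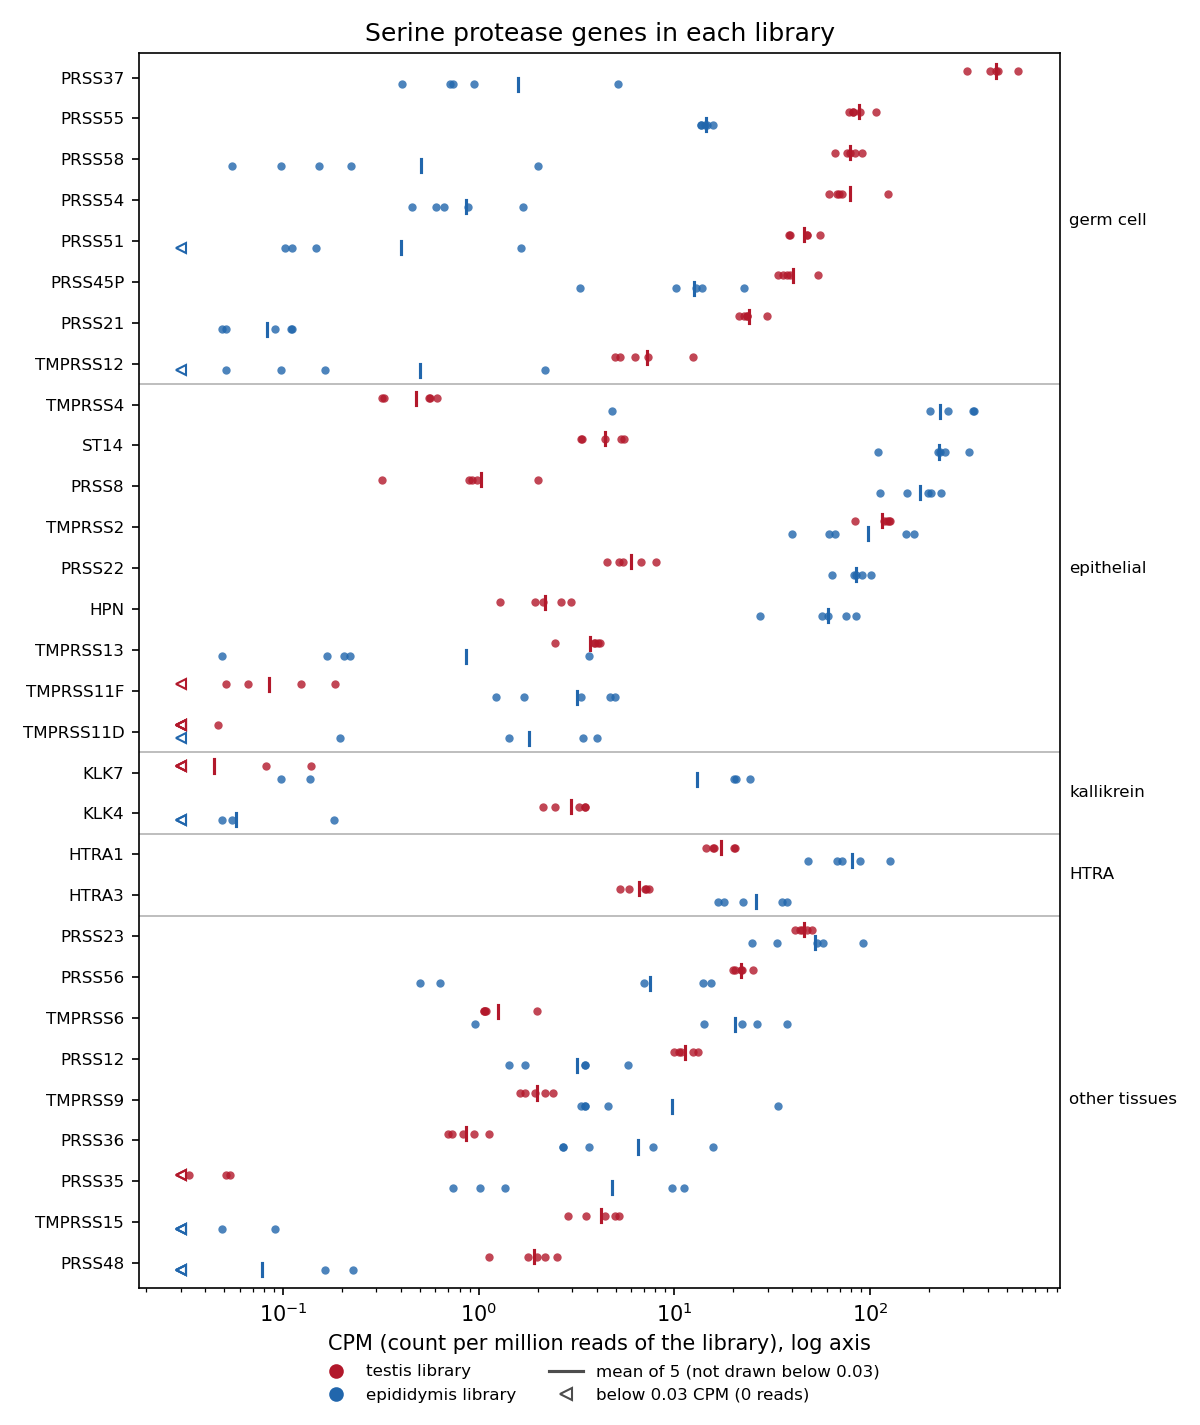
CPM per library (log axis) of the 30 proteases with a mean of at least 1 CPM in a tissue, by role group, with the testis libraries listed before the epididymis libraries. Values under 0.03 CPM are drawn at the floor of the axis. Germ cell members such as PRSS21 separate cleanly, whereas TMPRSS2 and PRSS23 have the tissues on top of each other.

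Among the epithelial proteases, matriptase (ST14) stood high in every epididymis library. It is a membrane-anchored protease that activates prostasin, hepatocyte growth factor and other precursors on epithelial cells (chromosome 9, 56888246 to 56929771). It had 3.33, 5.33, 4.44, 3.37 and 5.50 CPM in testis, against 321, 229, 109.6, 242 and 222 CPM in epididymis. The lowest epididymis library, replicate 3, was far above every testis library. This gave a log2 fold change of -5.65 ± 0.34 (edgeR adjusted p = 7.41e-08), and the per-length level was 1.28 ± 0.301 RPKM in testis and 65.4 ± 21.96 RPKM in epididymis.

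Prostasin (PRSS8), the lipid-anchored partner of matriptase that activates the epithelial sodium channel (chromosome 3, 17357793 to 17362223), had 1.998, 0.894, 0.926, 0.321 and 0.985 CPM in testis, against 232, 204, 154, 113 and 197 CPM in epididymis. No epididymis library was below 113 CPM and no testis library exceeded 1.998 CPM. Testis over epididymis, the log2 fold change was -7.44 ± 0.47 (edgeR adjusted p = 9.5e-08). Per length, prostasin, TMPRSS4 and ST14 were above all other members in mean level in the epididymis. Prostasin had 0.533 ± 0.316 RPKM in testis and 93.7 ± 24.3 RPKM in epididymis (mean ± SD of 5 libraries each). TMPRSS4 had 0.156 ± 0.0460 RPKM in testis and 74.1 ± 44.7 RPKM in epididymis. These 3 overlapped within their SDs in the epididymis, so no order among them is given.

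TMPRSS4, a membrane-anchored protease of epithelia that also activates sodium channels (chromosome 9, 45400263 to 45436936), was uneven across the epididymis. It had 0.615, 0.563, 0.555, 0.321 and 0.328 CPM in testis, against 335, 250.4, 4.79, 203 and 339 CPM in epididymis. Epididymis replicate 3 lay far below the other 4, yet above every testis library. The log2 fold change was -8.87 ± 1.01 (edgeR adjusted p = 8.39e-06). In that library TMPRSS4 held 0.663% of all protease reads. Of the 15 duct epithelium markers, 5 were lowest in that library, KRT7 at 31.5 CPM and CRISP1 at 53.2 CPM among them, and 2 were highest, WFDC2 at 217 CPM and AQP9 at 113 CPM. The sum of the 15 was 14982 CPM there and 8180 to 23947 CPM in the other 4. Most of the sum in replicate 3 was NPC2, with 12499 CPM there and 3232 to 18187 CPM in the other 4. The sum therefore does not show the level of the other markers, and the part of this library's cell content in the result was not tested.

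Tryptase epsilon (PRSS22), an epithelial protease first known from airways (chromosome 3, 39365798 to 39376909), had 6.71, 4.53, 5.23, 8.01 and 5.46 CPM in testis, against 102, 84.3, 63.7, 91.4 and 82.7 CPM in epididymis. Its epididymis libraries were much closer together than those of TMPRSS4. The tissues differed by a log2 fold change of -3.81 ± 0.22 (edgeR adjusted p = 5.83e-08). Hepsin (HPN), a membrane-anchored protease best known from liver and kidney (chromosome 6, 44608076 to 44628044), had 1.28, 2.95, 2.13, 2.62 and 1.93 CPM in testis, against 75.2, 27.3, 60.7, 56.8 and 84.7 CPM in epididymis. Its lowest epididymis library was replicate 2, not replicate 3. This gave a log2 fold change of -4.77 ± 0.36 (edgeR adjusted p = 3.61e-07).

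TMPRSS2, an androgen-regulated membrane protease of prostate and airway (chromosome 13, 204874759 to 204905411), was abundant in both tissues. It had 122, 117, 126, 84.2 and 127 CPM in testis, against 152, 66.1, 39.8, 61.4 and 168 CPM in epididymis. Epididymis replicates 1 and 5 lay above all testis libraries and the other 3 below all of them. Testis over epididymis, the log2 fold change was 0.24 ± 0.38 (edgeR adjusted p = 0.58), so no difference was detected. Its sign turned, to -0.14, when testis replicate 4 stood alone for its tissue. At 41.1 ± 6.31 RPKM in testis, it was the most abundant epithelial member there per length, with 34.8 ± 20.8 RPKM in epididymis.

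TMPRSS13, a membrane-anchored protease of skin and other epithelia, was the single epithelial member called higher in testis. Of all members it lies nearest to TMPRSS4 (chromosome 9, 45239349 to 45269757). It had 4.05, 4.17, 3.89, 2.46 and 3.94 CPM in testis, against 0.204, 0.219, 3.65, 0.167 and 0.0490 CPM in epididymis. Epididymis replicate 3 was within the testis range, at 98.5% of the testis mean, and the other 4 were near 0. The log2 fold change was 2.14 ± 0.88 (edgeR adjusted p = 0.0423). Without epididymis replicate 3 it was 4.498 (edgeR adjusted p = 1.74e-06), and the call was lost when any other single library was left out (edgeR adjusted p = 0.0551 to 0.0818).

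The airway trypsin-like TMPRSS11 genes were low in both tissues, each with more reads in the duct. TMPRSS11F ranged over 0 to 0.185 CPM in testis, against 1.22 to 4.99 CPM in epididymis, and was called higher in epididymis (log2 -5.09 ± 0.66, edgeR adjusted p = 2.03e-05). TMPRSS11D had 0, 0, 0.0463, 0 and 0 CPM in testis, against 4.02, 1.42, 0, 3.39 and 0.196 CPM in epididymis. It was not tested, because 2 epididymis libraries were at or near 0, and its reads, 1 in testis and 170 in epididymis, gave an epididymis over testis ratio of 198 (95% counting interval, 35.1 to 7864). TMPRSS11A had 22 reads in testis and 82 in epididymis, TMPRSS11B 1 and 2, TMPRSS11E 0 and 2, and TMPRSS3, a protease of the inner ear, 50 and 53. PRSS27 (marapsin) was tested and not called, with 0.604 ± 0.314 CPM in testis and 0.707 ± 0.180 CPM in epididymis (log2 -0.21 ± 0.39, edgeR adjusted p = 0.64).

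The kallikreins were scarce in both tissues, and 1 of the 13 was tested. In RefSeq 12 of them lie within 155468 bases of chromosome 6, from 55570632 to 55726099, and KLKB1, which makes plasma kallikrein in the liver, lies elsewhere. KLK4, known for clearing enamel matrix (chromosome 6, 55589997 to 55617514), had 2.46, 3.48, 2.13, 3.47 and 3.24 CPM in testis, against 0, 0.0548, 0.182, 0 and 0.0490 CPM in epididymis. The tissues did not overlap, and the log2 fold change was 5.51 ± 0.62 (edgeR adjusted p = 6.27e-06), or 6.52 without epididymis replicate 3. KLK7, the chymotrypsin-like enzyme that helps shed the outer skin layer (chromosome 6, 55644627 to 55649000), had 0, 0, 0.139, 0 and 0.0821 CPM in testis, against 20.6, 24.4, 0.137, 20.1 and 0.0979 CPM in epididymis. Epididymis replicates 1, 2 and 4 were high, and replicates 3 and 5 lay within the testis range. KLK7 had too few libraries with reads for the filter, and without the filter its log2 fold change was -8.01 (edgeR adjusted p = 0.00377), a value that rests on those 3 libraries.

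The other 11 kallikreins had at most 74 reads in a tissue. KLK15 had 63 reads in testis and 0 in epididymis, at least 18.0-fold higher in testis, and KLKB1 had 74 and 1, a ratio of 63.5 (95% counting interval, 11.06 to 2543). In both, all 5 testis libraries were above all 5 epididymis libraries, as they were in KLK8 with 28 and 3 reads. Reads in testis and epididymis numbered 48 and 12 for KLK14, 31 and 4 for KLK6, 25 and 2 for KLK1, and 25 and 1 for KLK5. The remaining KLK10, KLK11, KLK12 and KLK13 had 6 to 10 reads in testis and 0 to 2 in epididymis. No kallikrein but KLK7 therefore had more reads in epididymis.

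Both secreted HTRA proteases, which carry an IGFBP-like and a PDZ domain and act on the extracellular matrix, were higher in epididymis. HTRA1 (chromosome 14, 132043044 to 132103590) had 14.6, 15.95, 20.2, 15.7 and 20.4 CPM in testis, against 67.5, 89.03, 126, 72.02 and 48.1 CPM in epididymis. HTRA3 (chromosome 8, 2794780 to 2819686) had 5.84, 5.26, 7.45, 7.16 and 7.06 CPM in testis, against 17.97, 16.8, 37.6, 22.3 and 35.5 CPM in epididymis. In both genes the tissues did not overlap and epididymis replicate 3 was the highest library, unlike in ST14, PRSS8, PRSS22 and TMPRSS4. The log2 fold changes were -2.19 ± 0.25 for HTRA1 (edgeR adjusted p = 9.06e-06) and -1.97 ± 0.27 for HTRA3 (edgeR adjusted p = 3.56e-05). Summed CPM of the 6 fibroblast markers was 331 to 823 in testis and 1506 to 5278 in epididymis, highest in replicate 3, and its part in these values was not tested. HTRA2, a mitochondrial protease gene of most tissues that overlaps LOXL3 by 164 bases in RefSeq, was listed with 0 reads in all 10 libraries.

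The last 15 members are best known from other organs, and 10 of them were tested. Higher in testis were PRSS12 (neurotrypsin, a brain protease), TMPRSS15 (enteropeptidase, the gut activator of trypsinogen) and PRSS48. PRSS12 had 10.5, 9.90, 10.8, 12.5 and 13.3 CPM in testis, against 1.73, 1.42, 5.79, 3.50 and 3.48 CPM in epididymis, without overlap (log2 1.87 ± 0.34, edgeR adjusted p = 0.000386). TMPRSS15 had 3.54, 4.44, 2.87, 5.24 and 4.97 CPM in testis, against 0, 0, 0.0912, 0 and 0.0490 CPM in epididymis. All 5 testis libraries held enteropeptidase reads, while the epididymis had 3 reads in all, a ratio of 139 with a counting interval from 47.1 to 674 (log2 6.89 ± 0.62, edgeR adjusted p = 1.03e-06). Without epididymis replicate 3 the log2 fold change was 7.79. PRSS48 ranged over 1.13 to 2.51 CPM in testis, against 0 to 0.228 CPM in epididymis (log2 4.49 ± 0.73, edgeR adjusted p = 0.000125), or log2 5.38 without epididymis replicate 3. It lies within SH3D19, which had 94.2 ± 9.17 CPM in testis and 33.9 ± 7.63 CPM in epididymis.

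Another 4 genes of this group were higher in epididymis, each with an uneven duct. TMPRSS6 (matriptase-2, the liver protease that restrains hepcidin) had 1.08, 1.09, 1.06, 1.98 and 1.07 CPM in testis, against 26.5, 37.5, 0.957, 14.2 and 22.2 CPM in epididymis. Epididymis replicate 3 lay below every testis library, and the other 4 lay far above all of them (log2 -4.03 ± 0.72, edgeR adjusted p = 0.000315). TMPRSS9 (polyserase-1) had 2.41, 1.72, 1.62, 2.19 and 1.93 CPM in testis, against 4.58, 3.50, 3.33, 33.9 and 3.48 CPM in epididymis. Epididymis replicate 4 was far above the rest, and the log2 fold change of -2.23 ± 0.66 (edgeR adjusted p = 0.00886) was -0.95 without it (edgeR adjusted p = 0.00734). PRSS36 (polyserase-2) had 1.13, 0.728, 0.833, 0.695 and 0.944 CPM in testis, against 2.70, 3.67, 2.69, 7.73 and 15.7 CPM in epididymis, without overlap. Its log2 fold change of -2.89 ± 0.53 (edgeR adjusted p = 0.000388) was -2.24 without epididymis replicate 5. PRSS35, a protease-like protein of the ovary in mouse, had 0 to 0.0534 CPM in testis, against 1.02, 1.37, 11.2, 9.68 and 0.734 CPM in epididymis. Replicates 3 and 4 were the high ones, and all epididymis libraries were above all testis libraries, which held 3 reads in all (log2 -7.14 ± 1.14, edgeR adjusted p = 9.53e-05).

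PRSS23, PRSS56 and PRSS33 were tested and not called. PRSS23, a secreted protease of many tissues, had 44.8, 47.6, 50.6, 41.4 and 44.1 CPM in testis, against 33.6, 53.5, 57.7, 24.8 and 92.1 CPM in epididymis, with the epididymis on both sides of the testis range (log2 -0.19 ± 0.32, edgeR adjusted p = 0.604). Leaving out epididymis replicate 5 turned its sign, to 0.12. PRSS56, a protease of the eye, had 22.2, 21.9, 19.9, 20.3 and 25.1 CPM in testis, against 15.4, 13.96, 0.501, 6.95 and 0.637 CPM in epididymis. All 5 testis libraries were above all 5 epididymis libraries, but the epididymis split into replicates 1, 2 and 4 and the much lower replicates 3 and 5. The log2 fold change was 1.55 ± 0.76 (edgeR adjusted p = 0.0829), and the fit with the boar as a replicate block, which pairs the tissues of each animal, gave 2.41 (edgeR adjusted p = 0.0331). PRSS33 averaged 0.826 ± 0.363 CPM in testis and 0.513 ± 0.866 CPM in epididymis (log2 0.68 ± 0.87, edgeR adjusted p = 0.49), and was called without epididymis replicate 3 (log2 2.59, edgeR adjusted p = 0.00373).

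The other 5 genes of this group had too few reads. PRSS57 had 84 reads in testis and 9 in epididymis, without overlap, TMPRSS7 had 41 and 40, PRSS53 had 16 and 8, PRSS16 had 0 and 17, and PRSS2 had 3 and 1. Of the 24 untested members, testis would be called higher for 10 and epididymis for 4 without the filter on low counts, in a fit that called 31.3% and 26.3% of all genes in these directions. Among the 30 tested, 13 had all 5 testis libraries above all 5 epididymis libraries, against a background of 32.1% of all genes, and 11 had the reverse, against 29.3%. The 13 include PRSS56, which was not called, and lack TMPRSS13, and the 11 lack TMPRSS6.

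Neighbouring genes did not always share a direction. On chromosome 9, TMPRSS13 and TMPRSS4 lie within 197588 bases of each other and were called in opposite directions. On chromosome 3, PRSS36 and PRSS8, between 17345015 and 17396885, were both called higher in epididymis, with PRSS53 beside them untested. Also on chromosome 3, between 39301919 and 39399971, PRSS22 was called higher in epididymis while its neighbours PRSS33 and PRSS27 were not called. Under another identifier the tables also hold PRSS50, a testis protease that RefSeq names by ID and that the name rule did not take. It averaged 13.1 ± 2.71 CPM in testis and 0.230 ± 0.240 CPM in epididymis (mean ± SD of 5 libraries each, log2 5.84 ± 0.71, edgeR adjusted p = 1.4e-05). KLK9, found in the same way, had 32 reads in testis and 1 in epididymis.

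The epididymis libraries varied more among themselves than the testis libraries. The median coefficient of variation was 19.6% over the 24 members with a mean of at least 1 CPM in testis and 55.4% over the 21 with that mean in epididymis. Of the 15 members at that level in both tissues, 12 varied more in epididymis. Epididymis replicate 3 was the lowest library for 10 of the 21 and the highest for 5. Besides the haploid germ cell sum given above, this library had 159 CPM of the 6 clear cell markers, while the other 4 had 1.37 to 3.56 CPM and testis 44.4 to 52.3 CPM, mostly of CA2. FOXI1, the regulator of that cell type, stood at 10.5 CPM there and at 0 to 0.111 CPM in the others, where the proton pump gene ATP6V1B1 had 0 reads. It was the highest of the 5 for 5 of the 6 clear cell markers. Of the 5 basal cell markers it was lowest for KRT14 and KRT15 and highest for TP63 and ITGB4. The part of these differences in the protease values was not tested.

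**Figure D4:**
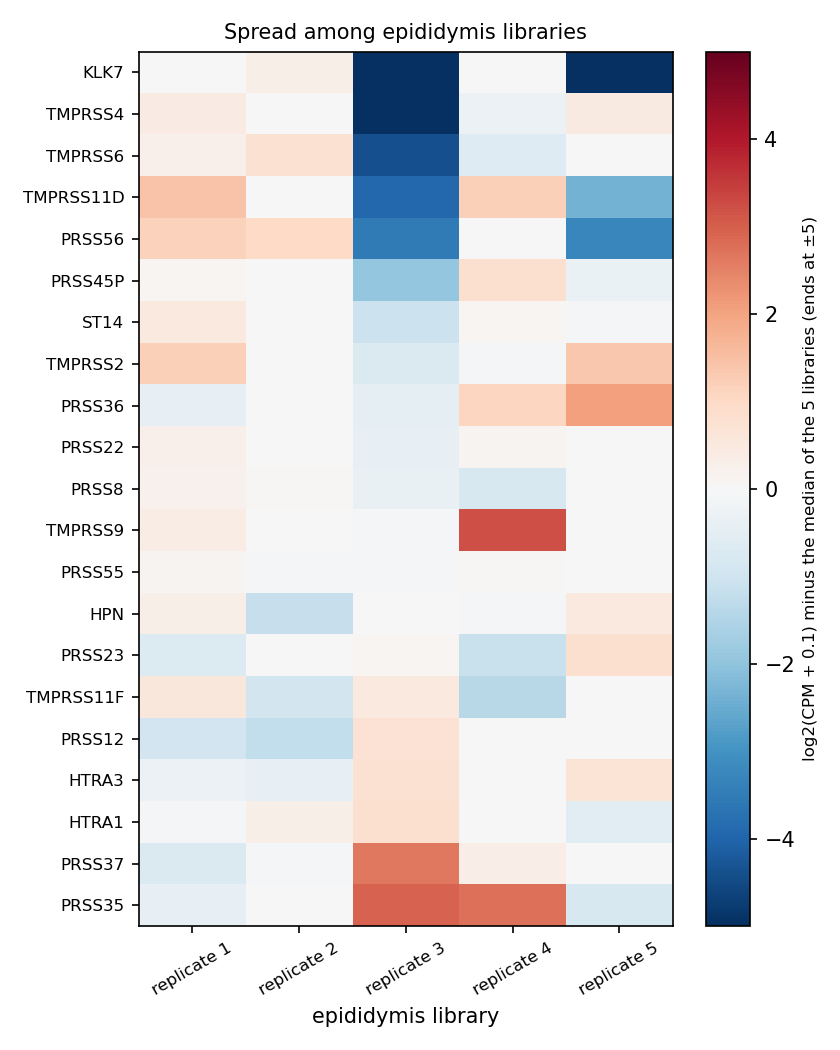
Level of each of the 21 proteases with a mean of at least 1 CPM in epididymis, as log2(CPM + 0.1) in each epididymis library (x axis) minus the median of the 5 libraries, in colour. Replicate 3 is low for TMPRSS4, TMPRSS6, KLK7 and PRSS56 and high for PRSS37 and PRSS35.

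The germ cell members were set beside germ cell markers across the duct libraries. As a share of the testis mean, the 14 haploid markers had medians of 0.226%, 0.252%, 3.23%, 0.654% and 0.328% in epididymis replicates 1 to 5. The 12 meiotic markers had medians of 0.658%, 0.782%, 0.856%, 0.614% and 0.905%. The 8 tested germ cell proteases had medians of 0.402%, 0.609%, 3.06%, 0.371% and 0.720%. In replicate 3 the medians of haploid markers and germ cell proteases were both highest, whereas that of meiotic markers was not. PRSS55 and PRSS45P did not move with that library, PRSS55 at 13.7 CPM being level with the others and PRSS45P at 3.28 CPM the lowest. PRSS21, with few reads in any epididymis library, was not highest there either. It stood at 0.378% of its testis mean in replicate 3, and at 0.454% and 0.461% in replicates 2 and 4.

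The inhibitors, substrates and relatives of these proteases were read in the same fit. Over all genes tested, 36.6% were called higher in testis, and 37.8% in the other direction, with a median log2 fold change of -0.07. Of 17 tested inhibitors of trypsin-like proteases, testis was called higher for 6 and epididymis for 8 (35.3% and 47.1%), with a median log2 fold change of 0.46. By level they were led by A2M, a plasma inhibitor that traps proteases, with 7305 ± 1493 CPM in testis and 113 ± 49.9 CPM in epididymis (log2 6.04). SPINT2, a Kunitz inhibitor of matriptase, prostasin and hepsin, had 76.8 ± 32.3 CPM in testis and 1478 ± 557 CPM in epididymis (log2 -4.27). SERPINF2, the plasmin inhibitor, had 1.64 ± 0.263 CPM in testis and 267 ± 124 CPM in epididymis (log2 -7.31). SERPINA5, the protein C inhibitor that also acts on acrosin, had 237 ± 49.04 CPM in testis and 0.311 ± 0.291 CPM in epididymis (log2 9.54). SPINT1, the other Kunitz inhibitor of matriptase, was picked after its values were seen and had 0.489 ± 0.175 CPM in testis and 174 ± 57.6 CPM in epididymis (log2 -8.44). All 5 were called. SERPINB6, SERPINC1, SPINK7 and AMBP were also called higher in testis. Per length, SPINT1 reached 0.193 ± 0.0693 RPKM in testis and 68.9 ± 22.8 RPKM in epididymis, near ST14 in the epididymis.

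Of 20 tested substrates and receptors, testis was called higher for 1 and epididymis for 10, with a median log2 fold change of -1.69. EPCAM, an adhesion protein that matriptase cuts, had 10.1 ± 6.49 CPM in testis and 577 ± 103 CPM in epididymis (log2 -5.83). E-cadherin (CDH1) had 5.64 ± 1.23 CPM in testis and 353 ± 122 CPM in epididymis (log2 -5.94). DCN, a matrix proteoglycan, had 71.3 ± 15.99 CPM in testis and 305 ± 107 CPM in epididymis, and the integrin chain ITGB1 had 56.1 ± 18.5 CPM in testis and 252 ± 83.6 CPM in epididymis. EPCAM and CDH1 are also among the duct epithelium markers and DCN among the fibroblast markers, so their values are no result apart from those markers. The gene called higher in testis was MST1, the macrophage-stimulating protein that hepsin and matriptase activate (log2 0.99, edgeR adjusted p = 0.00188). SCNN1A, a subunit of the sodium channel that prostasin activates, was picked after its values were seen. It had 0.666, 1.39, 1.06, 0.801 and 1.07 CPM in testis, against 38.3, 37.2, 5.38, 4.45 and 132 CPM in epididymis. Its epididymis libraries were uneven as well, with replicates 3 and 4 lowest (log2 -5.44, edgeR adjusted p = 0.000213). SCNN1B and SCNN1G, other subunits of that channel, were not called. SCNN1B had 0.901 ± 0.225 CPM in testis and 1.38 ± 0.535 CPM in epididymis (log2 -0.57, edgeR adjusted p = 0.129). SCNN1G had 1.63 ± 0.545 CPM in testis and 1.44 ± 0.828 CPM in epididymis (log2 0.23, edgeR adjusted p = 0.618).

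Of 24 other serine proteases tested, testis was called higher for 8 and epididymis for 11, with a median log2 fold change of -0.46. The list as written also held TESPA1, which is no protease and was called higher in testis, and is left out of these numbers. Acrosin (ACR), the main trypsin-like protease of the acrosome, had 285 ± 43.2 CPM in testis and 1.89 ± 1.35 CPM in epididymis (log2 7.25, edgeR adjusted p = 7e-07). PCSK4, the precursor-cutting convertase of germ cells, had 548 ± 26.3 CPM in testis and 4.70 ± 1.40 CPM in epididymis (log2 6.89, edgeR adjusted p = 9.61e-09). F12, F7, F10, CORIN, GZMK and CLPP were also called higher in testis. FURIN, the convertase of most cells, had 88.4 ± 19.1 CPM in testis and 308 ± 186 CPM in epididymis (log2 -1.74, edgeR adjusted p = 0.000958). Per length, PRSS37 in testis, at 359 ± 76.4 RPKM, stood above acrosin, at 203 ± 30.8 RPKM. OVCH2, an ovochymase known from the epididymis of mouse, was too uneven to be tested, with 0.359, 0.298, 0.324, 0.588 and 0.123 CPM in testis, against 0.153, 0.329, 1938, 0.0556 and 0.0979 CPM in epididymis. Its reads lay almost wholly in epididymis replicate 3.

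Of 15 tested genes of germ cell proteins, several of which are cut by or bound to these proteases in mouse, all 15 were called higher in testis, with a median log2 fold change of 7.24. The list was made of genes known from germ cells, and ACRV1, SPACA1 and TEX101 are also among the germ cell markers. The count is therefore no separate test. CRISP2, a sperm-borne secretory protein, had 1214 ± 649.6 CPM in testis and 18.6 ± 28.4 CPM in epididymis. ACRBP, the partner of proacrosin, had 1121 ± 53.4 CPM in testis and 56.97 ± 28.1 CPM in epididymis. ADAM3A, whose processing on mouse sperm needs several of these proteases, had 253 ± 136 CPM in testis and 2.29 ± 2.61 CPM in epididymis. CMTM2, a membrane protein of mouse sperm, had 219.7 ± 25.04 CPM in testis and 1.23 ± 0.900 CPM in epididymis.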

How the data were processed

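RNA of 5 testis and 5 epididymis libraries was measured by short-read sequencing of poly(A)-enriched cDNA amplified by PCR, per the labels' protocols, which name no molecular identifiers. The submitters' processing notes name cutadapt 3.0, STAR, featureCounts and Subread, and the build Sscrofa11.1. Not given in the sources used here are the strand setting, the annotation release and the handling of reads with several positions, so near-identical copies (tandem PRSS and KLK genes) and overlapping genes are uncertain. The deposited values are raw counts per gene, with the gene length in bases per the file headers.

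Counts were fitted with edgeR 4.0.16 in R 4.3.3 (filterByExpr, TMM, robust quasi-likelihood test, tissue as the only term, Benjamini-Hochberg adjustment over 17225 genes, calls at 0.05). SEs are approximate, derived from the fold change and the F statistic. Only the main edgeR fit was run on simulated counts. These held far fewer changed genes than were called here, so that run does not test calls under changes this widespread. The p-values measure the spread between libraries, 1 per boar. Between libraries of a tissue, chi-square per degree of freedom was 9.53 or more, so each counts as 1 replicate. The animal numbers in the file headers pair the tissues. Deviations of the same boar correlated at 0.0102, 0.0902, 0.00971, 0.0507 and 0.0298 in order of replicate. The highest correlations of the same testis libraries with the epididymis of another boar were 0.0349, 0.0477, 0.0965, 0.0626 and 0.00328. The pairing therefore rests on the headers and is not borne out by these values. CPM uses the library total, and RPKM divides it by the length in kilobases. Members with a mean of at least 5 CPM in a tissue are given with all libraries, those from 1 to 5 CPM mostly by range, and the rest by reads. Of each list of inhibitors, substrates, other serine proteases and sperm proteins, up to 4 genes of highest mean CPM and any against the list's main direction are named. Bounds use 3 reads over a tissue, and ratios an exact 95% interval. RefSeq placed 45 of the 54 members by symbol and 9 not. DESeq2 1.42.0, other scalings, no filter, the boar as block and left-out libraries were tried. The members and lists were chosen with earlier results of these data known.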

Additional observations from a re-analysis of the deposited data

Results flagged for a closer look

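In 8 of 45 sets of 5 libraries, a member's highest or lowest library stood far from the other 4 of its tissue. Chance gives about 1 in 20 for independent sets of normal values. These sets come from the same 10 libraries and are not independent, so the count is no test against chance. Testis replicate 4 accounted for 6 of them. It was the highest testis library for PRSS54 at 124 CPM, with the next at 71.6 CPM, for PRSS45P at 54.3 CPM, with the next at 39.0 CPM, for PRSS21 at 29.6 CPM, with the next at 23.5 CPM, and for TMPRSS6 at 1.98 CPM, with the next at 1.09 CPM. It was the lowest for TMPRSS2 at 84.2 CPM, with the next at 117 CPM, and for TMPRSS13 at 2.46 CPM, with the next at 3.89 CPM. This library also held 76.1 CPM of replication-dependent histone genes, while the other testis libraries held 2030 to 2915 CPM, and 16159 CPM of mitochondrial genes, while the others held 5238 to 8323 CPM. The epididymis libraries held 59.8 to 295 CPM of the histone genes and 17840 to 64534 CPM of the mitochondrial genes. By the headers its boar was also the oldest, at 17 months, while the others were 11 or 12 months. The part of these differences in the 6 values was not tested, and with 1 such library they cannot be told apart. In the epididymis, PRSS37 reached 5.15 CPM in replicate 3, with the next at 0.945 CPM, and TMPRSS9 reached 33.9 CPM in replicate 4, with the next at 4.58 CPM.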

How the results depend on the processing

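Of the 30 tested members, 16 kept their direction and their side of the threshold in all 19 alternative fits. Leaving out 1 library at a time gave 12 to 15 members higher in testis and 12 to 13 higher in epididymis. In these fits 6124 to 6980 of all genes were called higher in testis and 6094 to 6883 in epididymis, of 17514 to 18013 tested. Without overlap were 13 to 15 members with testis above and 11 to 12 with epididymis above. With all libraries these shares over all genes were 32.1% and 29.3%. With testis replicate 4 alone for its tissue, whose spread is then assumed from the epididymis, 7 members were called higher in epididymis and 2145 of all genes. In that fit testis was higher for 5 genes of the list of other serine proteases (with TESPA1) and epididymis for 1, and for substrates and receptors the numbers were 0 and 5. Without the filter on low counts, 22 members were called higher in testis, in a fit that called 31.3% of 27584 genes in that direction and 26.3% higher in epididymis. Without epididymis replicates 3 and 4 together, 2 substrates were called higher in testis. Signs turned for members that were not called, namely PRSS23 (log2 -0.40 to 0.12 over the left-out libraries, positive without epididymis replicate 5), TMPRSS2 with testis replicate 4 only (log2 -0.14) and without epididymis replicates 3 and 4 (log2 -0.21), and PRSS27 without testis replicate 4 and epididymis replicate 3 (log2 0.075), a setting chosen after seeing the data. Where not given by the alternative's construction, the cause was not tested. The replicate block, which pairs the tissues of each boar, changed the call of PRSS56 (log2 2.41, edgeR adjusted p = 0.0331) and no other member. PRSS56 was also called by DESeq2 (adjusted p = 0.0304) and without epididymis replicate 1 (edgeR adjusted p = 0.0421). TMPRSS13 lost its call without composition factors (edgeR adjusted p = 0.052) and without the filter (0.0539).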
